A study of Mus musculus with 6 samples.

Results

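The transcripts of 10 genes of cell adhesion were followed in cultured mouse macrophages: the integrin alpha subunits Itgam, Itgax, Itgal, Itga4 and Itgav, the beta subunits Itgb2, Itgb1 and Itgb5, and the cell-surface ligands Icam1 and Vcam1. These 10 genes were taken by symbol from the 40213 genes counted in each library, and all 10 were among the 12893 genes that passed the expression filter. RNA came from 6 libraries of bone marrow-derived macrophages, which are bone marrow precursors of C57BL/6 mice grown for 4 days with 25 ng/ml of the growth factor M-CSF (macrophage colony-stimulating factor) and 10% serum. The 3 control libraries came from untreated cells, and the 3 MNP libraries from cells given 50 µg of polystyrene micro- and nanoplastics (MNP) for 24 h, with particle size and culture volume not given in the sources used here. Both groups carried the same growth factor and serum, and it is not stated if the replicates are different mice or wells of a single culture, so the p-values describe the variation among these libraries, which may be technical only.

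Integrins are receptors made of 1 alpha and 1 beta subunit, and a subunit reaches the cell surface as part of such a pair. In leukocytes the beta chain of Itgb2 pairs with the alpha chain of Itgam (complement receptor, Mac-1), Itgax or Itgal (LFA-1). These pairs bind Icam1, and those with Itgam or Itgax also bind complement fragments and other ligands. Itga4 pairs with Itgb1 to bind Vcam1 and fibronectin, and Itgav pairs with Itgb1 or Itgb5 to bind matrix proteins with the RGD motif. Icam1 and Vcam1 are immunoglobulin-family ligands whose genes are textbook targets of inflammatory signals, and Vcam1 is also made by some tissue macrophages.

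Adhesion genes did not move as a block. Vcam1 fell 3.84-fold and Itgal 3.00-fold, Itgb5 and Icam1 fell 1.72-fold and 1.55-fold, and Itgb2, the common beta chain of the leukocyte integrins, rose 1.36-fold. Of the 10 genes, 1 was higher and 5 were lower in MNP samples at an adjusted p under 0.05, and 4 did not pass (edgeR quasi-likelihood test with Benjamini-Hochberg adjustment over all 12893 genes). The called share of 60% stands beside 17.5% over all tested genes, with 9.11% higher and 8.35% lower. The 10 genes were chosen with earlier results of these data known, so the shares describe them and are not a test. The median log2 fold change of the 10 was -0.22 and that of all tested genes -0.01. With library totals in place of TMM scaling, the 1174 higher and 1076 lower calls over all genes became 757 and 1941, and the 10 genes gave 1 higher and 6 lower.

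The proximal promoters of 3 of the called genes, Icam1, Itgb5 and Itga4, are printed because they are the called genes with an entry in the RefSeq table used here. Entries were found for 7 of the 10 genes, all but Vcam1, Itgal and Itgb2. Each line gives the 250 bases before the annotated start, 5′ to 3′, from RefSeq on build GRCm38.p6, an older build than the GRCm39 named in the submitters' processing notes. Capitals mark matches, on either strand, to the NF-kB-type motif GGNNNTTCC or the PU.1-type motif GAGGAA (PU.1 is a myeloid transcription factor).
Icam1, chr9:21015690-21015939, plus strand: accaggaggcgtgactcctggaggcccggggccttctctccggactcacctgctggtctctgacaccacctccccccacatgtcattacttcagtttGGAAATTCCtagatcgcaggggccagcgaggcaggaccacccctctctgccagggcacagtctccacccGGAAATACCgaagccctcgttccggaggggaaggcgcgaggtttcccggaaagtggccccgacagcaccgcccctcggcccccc
Itgb5, chr16:33829415-33829664, plus strand: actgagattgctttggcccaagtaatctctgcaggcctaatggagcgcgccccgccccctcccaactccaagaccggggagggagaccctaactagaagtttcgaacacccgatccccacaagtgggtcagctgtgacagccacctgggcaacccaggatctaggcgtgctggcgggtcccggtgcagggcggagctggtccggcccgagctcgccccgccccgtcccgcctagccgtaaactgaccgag
Itga4, chr2:79255176-79255425, plus strand: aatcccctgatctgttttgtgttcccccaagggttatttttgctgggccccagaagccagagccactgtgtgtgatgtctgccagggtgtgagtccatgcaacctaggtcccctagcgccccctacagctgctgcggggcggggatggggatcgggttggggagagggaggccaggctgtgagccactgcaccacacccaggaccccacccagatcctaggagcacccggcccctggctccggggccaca

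Icam1 held the NF-kB-type motif at 2 places, 153 and 84 bases before the start, and the first of these reads as a match on both strands. That motif was present in 15.7% of the 32851 promoters of the same length, and in 2 of the 7 promoters available here, those of Icam1 and Itgb1. Itgb5 and Itga4 held neither motif in this window. The PU.1-type motif was found in 3 of the 7, Itgam, Itgav and Itgb1 and stood in 23.3% of all promoters. No match overlapped a match to the other motif. These are matches of letters, and binding was not measured.

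**Figure D1:**
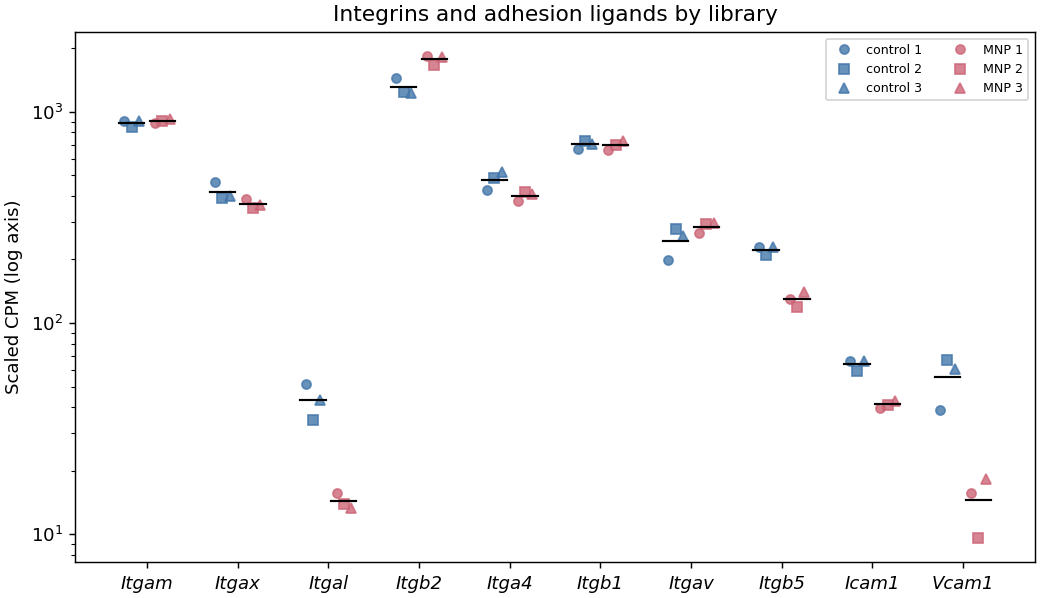
Scaled CPM (CPM, counts relative to a library total scaled by TMM factors, log axis) of the 10 genes in each library, with control libraries in blue, MNP libraries in red, a marker shape per replicate number and a bar at each group mean. The Itgal, Itgb5, Icam1 and Vcam1 points of the MNP group lie below all control points, those of Itgb2 lie above them, and those of Itgam and Itgb1 interleave.

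Itgb2, which encodes the beta chain of the leukocyte integrins (CD18), was the one gene of the 10 that rose. Its level was 1440.0, 1248 and 1230.0 scaled CPM in controls 1 to 3 and 1834, 1668 and 1813 in MNP samples 1 to 3. Every MNP library lay above every control. The mean went from 1306 ± 116 to 1771 ± 90.5 scaled CPM (SD, n = 3; log2 fold change 0.44 ± 0.07 SE, edgeR adjusted p = 0.000583). None of the 3 alpha chains that share this partner passed as higher.

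Itgam, the alpha chain of the complement receptor CD11b/CD18, was level. It stood at 903, 850.3 and 910.0 scaled CPM in controls and 887, 904 and 928 in MNP samples, so the groups overlapped. The log2 fold change was 0.03 with a 95% interval of -0.09 to 0.15 (edgeR adjusted p = 0.762). The sign of that value was negative with library totals (-0.059).

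Itgax, the alpha chain CD11c, which marks dendritic cells and many macrophages, was slightly lower without passing the test. The values were 463, 392 and 399 scaled CPM in controls and 387, 351 and 361 in MNP samples. The groups did not overlap, but the nearest libraries, control 2 and MNP sample 1, were close together. The log2 fold change was -0.19 (95% interval -0.34 to -0.04, edgeR adjusted p = 0.0805), and it passed with library totals (-0.28, edgeR adjusted p = 0.0123). Groups that do not overlap in either direction were found for 34.6% of all tested genes, and for 7 of these 10.

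Itgal, the alpha chain of LFA-1 that binds Icam1 and is abundant on lymphocytes, had the largest decrease among the 5 alpha subunits. It went from 51.4, 34.7 and 43.0 scaled CPM in controls to 15.7, 13.9 and 13.3 in MNP samples, from raw counts of 797 to 1072 down to 279 to 325. The groups were far apart, with control 2 the lowest control and MNP sample 1 the highest MNP library. The log2 fold change was -1.59 ± 0.13 SE (edgeR adjusted p = 1.74e-06).

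Because Itgal is also a lymphocyte and granulocyte gene, markers of those cells are given beside it. The summed level of the 7 T cell markers with a row ran from 15.2 to 19.4 scaled CPM in controls and from 3.67 to 4.97 in MNP samples. Nearly all of that sum was Cd4, which some macrophages also express (17.1 and 3.94 scaled CPM on average), while Cd3e was at 0 in all 6 libraries and Cd3d and Cd3g were at or below 0.261. The 10 neutrophil markers summed to 185 to 274 scaled CPM in controls and 135 to 154 in MNP samples. Of 9 tested markers 5 were lower, beside 8.35% of all tested genes, and the defining gene Ly6g was at or below 0.096. The largest parts of the sum were S100a9 (106 and 58.8 scaled CPM on average, called lower) and S100a8 (50.9 and 39.2, not called). The part of neutrophil transcripts in the Itgal decrease was not tested. In these bulk libraries, fewer cells of a type and less RNA per cell cannot be told apart.

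Of the pair that binds Vcam1 and fibronectin, Itgb1 was level and Itga4 was lower. Itgb1, the most widely shared beta chain, stood at 667, 729 and 707 scaled CPM in controls and 663, 700.3 and 724 in MNP samples, and the groups overlapped throughout. Its log2 fold change was -0.01 with a 95% interval of -0.14 to 0.12 (edgeR adjusted p = 0.925), and its sign depended on the setting. Itga4, the alpha chain CD49d, stood at 428, 485 and 519 scaled CPM in controls and 377, 416 and 408 in MNP samples. The groups did not overlap, with control 1 and MNP sample 2 nearest to each other. Itga4 passed narrowly (log2 fold change -0.25 ± 0.07 SE, edgeR adjusted p = 0.0264). The call was lost when control 2, control 3, MNP sample 1, MNP sample 2 or MNP sample 3 was left out (edgeR adjusted p = 0.0609 to 0.123), and the direction was negative each time.

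The matrix-binding pair also came apart. Itgb5, a beta chain of vitronectin receptors used in uptake of dying cells, went from 229, 210.3 and 228 scaled CPM in controls to 129.6, 119 and 139.7 in MNP samples. The control libraries lay close together and well above all MNP libraries. The log2 fold change was -0.78 ± 0.07 (SE), with an edgeR adjusted p = 2.51e-06. Its alpha partner Itgav stood at 198, 278 and 259.8 scaled CPM in controls and 266, 296.1 and 296.3 in MNP samples, with control 1 the lowest library and control 2 inside the MNP range. Its log2 fold change was 0.22 with a 95% interval of 0.01 to 0.44 (edgeR adjusted p = 0.155). The value was 0.10 without control 1, and Itgav did not pass in any fit that left out a library, but it passed as higher with no expression filter (0.25, edgeR adjusted p = 0.0025).

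Both ligands fell. Icam1, the ligand of Itgal and Itgam pairs with Itgb2, stood at 66.2, 59.6 and 66.1 scaled CPM in controls and 39.5, 41.0 and 43.0 in MNP samples. Each group was narrow and the gap between them was wider than either group. Its mean went from 63.9 ± 3.79 to 41.2 ± 1.72 scaled CPM (SD, n = 3; log2 fold change -0.64 ± 0.07 SE, edgeR adjusted p = 3.91e-05). Vcam1, the ligand of Itga4 with Itgb1, stood at 38.9, 67.1 and 60.6 scaled CPM in controls and 15.7, 9.60 and 18.2 in MNP samples. Relative to its mean it varied more between replicates than the other 9 genes, with control 1 low among controls and MNP sample 2 low among MNP samples, but no library crossed over. Its log2 fold change was -1.94 ± 0.21 SE (edgeR adjusted p = 2.59e-05), and ran from -2.14 to -1.71 when each library was left out in turn.

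Vcam1 is best known from activated endothelium, so endothelial markers are given beside it. The 7 endothelial markers summed to 18.0 to 21.8 scaled CPM in controls and 13.3 to 16.9 in MNP samples. Most of that was Kdr (18.1 and 13.1 scaled CPM on average, edgeR adjusted p = 0.018), while the defining genes Cdh5, Emcn, Tek and Cldn5 were at or below 0.967. The 8 markers of fibroblasts and stroma summed to 1.06 to 2.88 in controls and 1.19 to 1.45 in MNP samples.

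**Figure D2:**
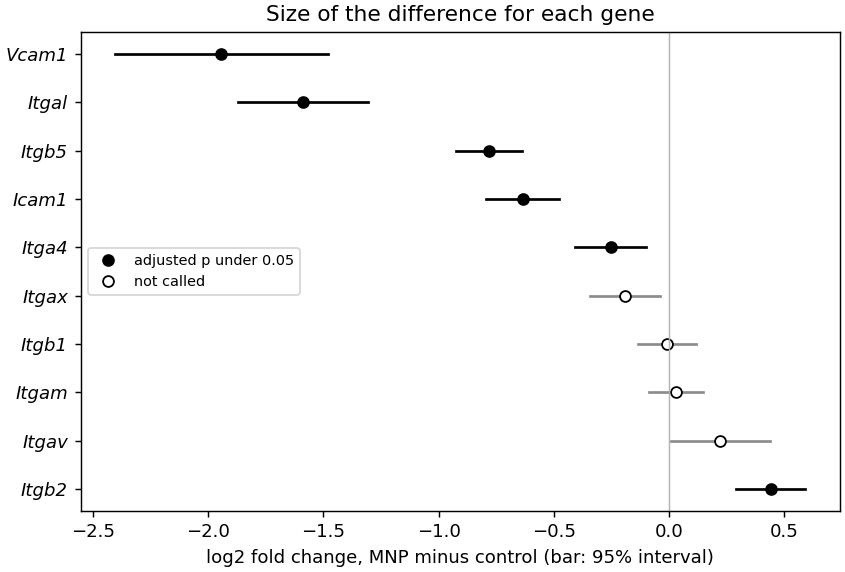
Log2 fold change of MNP minus control for each gene (x axis), with its 95% interval from the edgeR fit as a bar and filled points for genes called at an adjusted p under 0.05. The genes run from Vcam1 at -1.94 to Itgb2 at 0.44, and the intervals of Itgam and Itgb1 include 0.

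Transcript length differs between these genes, so their levels were also set on a scale of CPM per kilobase of the principal GENCODE transcript. On that scale the control means fell in the order Itgb2 (439.7), Itgam (191), Itgb1 (184), Itgax (103), Itgb5 (67.8), Itga4 (48.9), Itgav (34.8), Icam1 (25.2), Vcam1 (16.0) and Itgal (8.28). Among neighbours in that order the ranges of Itgam and Itgb1 overlapped and the others did not. The levels of Itgam, Itgb5 and Icam1, and the ratios below that use them, carry the uncertainty from shared sequence described further below. In MNP samples Itgb5 (39.4), Itga4 (41.0) and Itgav (40.6) lay together with overlapping ranges, and so did Vcam1 (4.18) and Itgal (2.75). On this scale Itgb5 changed place, from above Itga4 and Itgav to a level with both. That change rests on the length of 1 transcript per gene. Without division by length, mean Itgb5 was already below both in controls (222 scaled CPM, against 477 for Itga4 and 245 for Itgav). It was also below both in MNP samples (129, against 400 and 286).

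Ratios within a library compare 2 chains of a receptor and do not depend on library scaling. Per kilobase, the ratio of Itgam to Itgb2 was 0.401, 0.435 and 0.473 in controls and 0.309, 0.346 and 0.327 in MNP samples. All MNP libraries were lower, by -0.41 on the log2 scale. The ratio of Itgax to Itgb2 was 0.236, 0.231 and 0.238 in controls and 0.155, 0.155 and 0.146 in MNP samples, a log2 difference of -0.63. The spread among controls was small, with an SD of 0.00396. The ratio of Itgal to Itgb2 went from 0.0188 ± 0.00251 to 0.00463 ± 0.000366 (SD, n = 3), a log2 difference of -2.01.

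Outside the Itgb2 receptors, the ratio of Itgav to Itgb5 went from 0.404, 0.615 and 0.53 in controls to 0.954, 1.16 and 0.987 in MNP samples, a log2 difference of 1.02. On this scale control samples held less Itgav than Itgb5 transcript, and MNP samples about equal amounts. That order rests on the length of 1 transcript per gene, and the transcript forms in use were not measured. Without division by length the ratio ran from 0.868 to 1.32 in controls and from 2.05 to 2.49 in MNP samples. The ratio of Itga4 to Itgb1 was 0.266 ± 0.0185 and 0.225 ± 0.00656, and that of Itgav to Itgb1 was 0.189 ± 0.0242 and 0.222 ± 0.00592. The ratio of Itgax to Itgam was 0.541 ± 0.0435 and 0.465 ± 0.0317, and that of Vcam1 to Icam1 was 0.641 ± 0.199 and 0.257 ± 0.0747. In all 8 ratios the groups did not overlap, so each had an exact two-sided permutation p of 0.1 (0.1 after Benjamini-Hochberg adjustment over the 8), the smallest that 3 samples against 3 can give. Many of these ratios share a gene, so they are not independent of each other. Of single tested genes, 34.6% did not overlap between groups, and the share among ratios of other gene pairs was not computed.

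**Figure D3:**
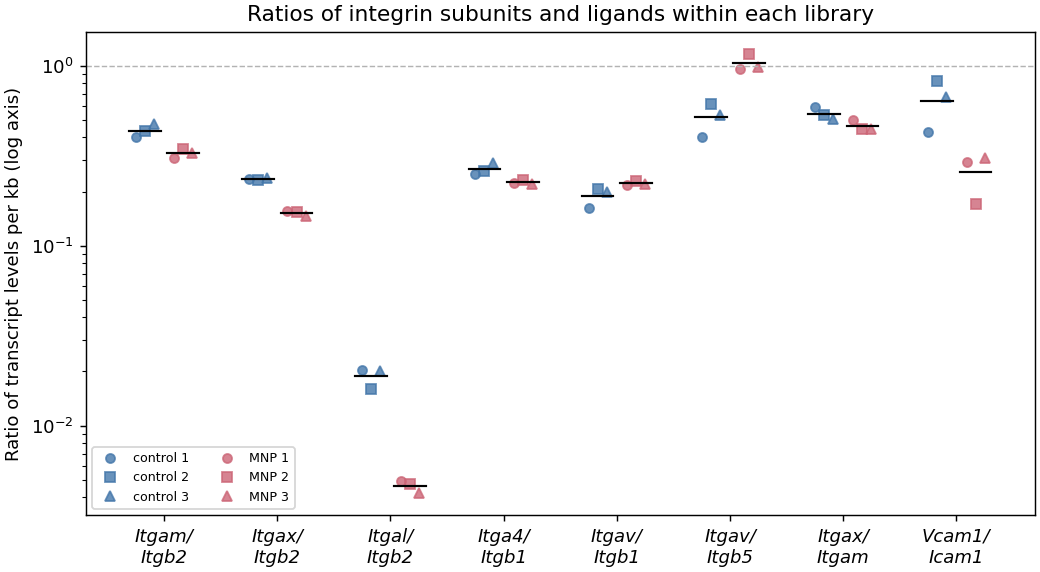
Ratio of the transcript levels per kilobase of 2 genes (log axis) in each library, with control libraries in blue, MNP libraries in red and bars at group means. The dashed line marks equal levels. Itgav/Itgb5 reaches that line in MNP samples (0.954 to 1.16), and the 3 ratios to Itgb2 are lower in every MNP library than in any control.

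The other integrin subunits showed changes in both directions. Of 7 tested alpha subunits outside the 10 genes, 1 rose and 3 fell (median log2 fold change -0.15). Itga8, which binds RGD proteins with Itgb1, rose from 3.47 ± 0.452 to 7.26 ± 0.352 scaled CPM. Itga9 fell from 6.43 ± 0.891 to 2.75 ± 0.23 scaled CPM. Itga2b, the platelet fibrinogen receptor chain, fell from 4.38 ± 1.15 to 0.903 ± 0.515 scaled CPM. Itgad, a further partner of Itgb2, was lower by 0.53 on the log2 scale (3.89 against 5.64 scaled CPM), and its call was lost in each fit that left out a library.

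Of 4 tested beta subunits, 2 rose and 1 fell (median 0.14). Itgb3, the other major partner of Itgav in macrophages and osteoclasts, rose 1.89-fold, from 26.4, 26.1 and 20.4 scaled CPM in controls to 48.3, 47.2 and 42.4 in MNP samples (edgeR adjusted p = 2.92e-05). Itgb8, a further Itgav partner that activates latent TGF-beta, rose 2.63-fold from 2.38 ± 0.175 to 6.25 ± 0.804 scaled CPM. Among the beta chains known to pair with Itgav, Itgb3 and Itgb8 were thus higher, Itgb5 was lower, Itgb1 did not pass and Itgb6, at or below 0.335 scaled CPM, was too low to be tested. Itgb2l, a relative of Itgb2, fell from 2.48 ± 0.078 to 0.815 ± 0.263 scaled CPM.

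Genes that link integrins to the cytoskeleton and to signalling were split, with 7 of 32 tested higher and 6 lower (median -0.01). The actin cross-linker Flna rose 1.34-fold from 1543 ± 113 to 2074 ± 79.3 scaled CPM, the parvin Parvg 1.39-fold and the adhesion kinase Ptk2b (PYK2) 1.25-fold. The talin gene Tln1, whose product activates integrins, did not pass (1764 ± 154 and 1784 ± 88.5 scaled CPM, edgeR adjusted p = 0.903); it was chosen after its value was seen.

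Tetraspanins and other lateral partners of integrins had 6 of 13 tested genes higher and 0 lower (median 0.18). Cd9 rose 1.5-fold from 418 ± 31.9 to 626 ± 22.9 scaled CPM, Cd81 2.03-fold from 24.4 ± 5.81 to 49.6 ± 4.13, and the lysosomal tetraspanin Cd63 1.32-fold. Slc3a2, the heavy chain of CD98 that binds beta chains and carries amino acid transporters, rose 1.40-fold from 129 ± 7.13 to 179.6 ± 3.40 scaled CPM. At an unadjusted p under 0.05, 0 genes of this list were lower in the edgeR fit, and DESeq2 called 0 lower.

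Of 17 tested matrix and soluble ligands, 5 rose and 3 fell (median 0.09). Fibronectin (Fn1), a ligand of Itga4 and Itgav pairs, fell 1.84-fold from 41.7 ± 7.22 to 22.7 ± 0.534 scaled CPM. Tgfbi, a secreted RGD protein, rose 2.24-fold from 56.0 ± 12.1 to 125.6 ± 10.7, and Edil3, a ligand of Itgav pairs, rose 2.78-fold from 2.36 ± 0.673 to 6.59 ± 0.696 scaled CPM. Lamb2, a laminin chain, fell from 2.70 ± 0.81 to 0.897 ± 0.125 scaled CPM. Of 12 tested adhesion ligands and receptors of other families, 1 rose and 4 fell (median -0.17). Among them the stem-cell sialomucin Cd34 fell 2.64-fold, from a level under 5 scaled CPM, Alcam rose 1.19-fold from 726 ± 12.4 to 863 ± 26.1, and the selectin ligand gene Selplg was lower by 1.16-fold, a call lost when any library but control 2 was left out. Over all 6 lists, 22 of 85 tested genes rose and 17 fell, a called share of 45.9% beside 17.5% of all tested genes. The lists were chosen with earlier results of these data known, so these shares do not test if adhesion genes changed more than others. The 17 genes that fell became 11 without MNP sample 1.

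**Figure D4:**
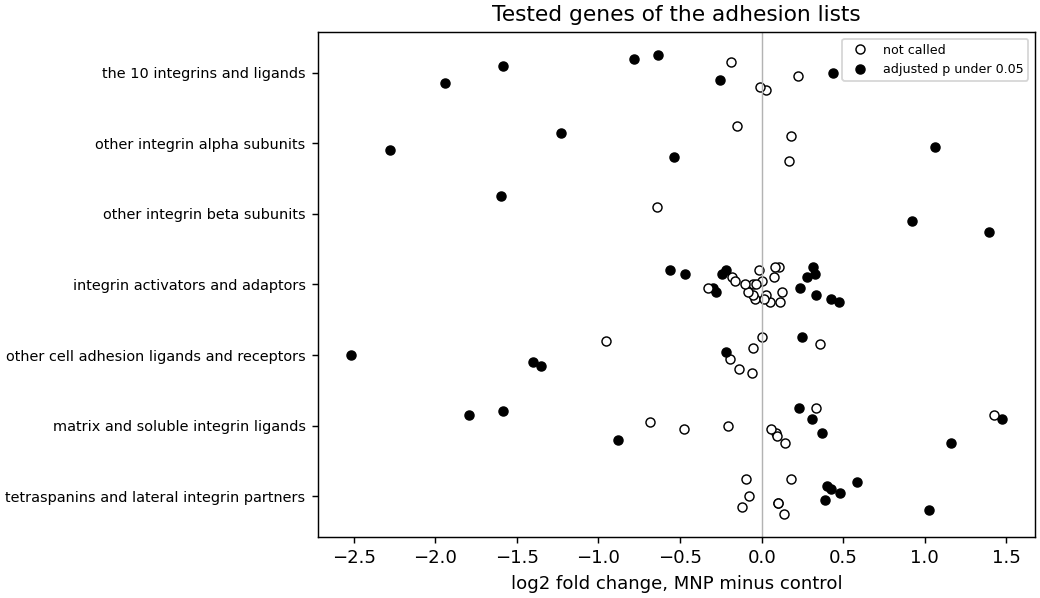
Log2 fold change of MNP minus control (x axis) of every tested gene in the 10-gene set and in 6 further adhesion lists (rows), with filled points for genes called at an adjusted p under 0.05. Vertical offsets within a row only separate points. The tetraspanin row has filled points only to the right of 0, and the other rows have them on both sides.

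Some genes followed the profiles of the most changed members closely. Likeness was measured as the Euclidean distance between log2 CPM profiles, each centred on its own mean over the 6 libraries, among 9182 named genes averaging 5 CPM or more. Nearest to Vcam1 were Cd4 (distance 0.72), the ferroxidase Cp (0.75), the selenium carrier Selenop (0.79) and Hpgd, which breaks down prostaglandins (0.84). Nearest to Itgal were Ahrr, the repressor of the aryl hydrocarbon receptor (0.27), the MHC class II activator Ciita (0.37), Oas2 (0.39) and the membrane protease Mmp14 (0.40). With 3 libraries in each group, the difference between groups enters every such distance.

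Totals per library ran from 20262859 to 23042146 counts, and 3 counts were worth 0.127 to 0.145 scaled CPM. A count was found for 20222 to 24062 genes in controls, most in control 1, and for 18240 to 18672 in MNP samples, and the part of this in the decreases of weakly expressed genes such as Itga2b, Itgb2l, Lamb2 and Cd34 was not tested. The lowest count of any of the 10 genes was 213, for Vcam1 in MNP sample 2. All 8 macrophage markers were present and summed to 18248 to 18883 scaled CPM in controls and 16091 to 17085 in MNP samples, with 4 lower (Adgre1, Lyz2, Mertk and Fcgr1) and 0 higher (edgeR; 1 higher at an unadjusted p under 0.05, and 1 by DESeq2). The 10 dendritic cell markers, relevant to Itgax, summed to 19.8 to 22.8 and 19.5 to 23.8 scaled CPM, with 3 of 8 tested markers lower (Siglech, Dpp4 and Batf3) and 1 higher (Kit). Kit was the largest part of both sums (9.90 and 16.8 scaled CPM on average). Every other marker of that list averaged 3.02 scaled CPM or less in controls and had a lower mean in MNP samples. Lists of B cells, NK cells, mast cells and erythroid cells summed to at most 3.07 scaled CPM in any library, and osteoclast markers to between 422 and 494.5 (controls) and between 432 and 443 (MNP). Most of the osteoclast sum was Atp6v0d2 (369.5 and 330.2 scaled CPM on average), which did not pass. Of 5 tested osteoclast markers 1 was higher, Ctsk (29.3 and 50.4 scaled CPM, edgeR adjusted p = 0.00146), and 0 were lower. Over all tested genes, 9.11% were higher and 8.35% lower. The part of these markers in any result was not tested.

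Sequence shared with other genes limits some counts. In GENCODE M21 transcripts (build GRCm38), 73.8% of the 75-base windows of Itgam also occurred in the gene model Gm49368, which overlaps it on the same strand, 6.04% of those of Itgax occurred in Itgad, 7.45% of those of Itgb5 in Gm38317 and 0.242% of those of Itgb2 in Gm14699. Windows on the opposite strand covered 17.8% of Icam1 (Gm47079) and 10.1% of Itga4 (Cerkl). Cerkl held 6 to 16 counts per library, and Itga4 7796 to 12232. The deposited counts had no row under the symbols Gm49368, Gm38317, Gm14699 or Gm47079, so reads from the shared windows could not be separated. The strand setting of the counting is not given in the sources used here. The Itgam, Itgb5 and Icam1 counts carry that uncertainty. The principal transcripts of Itgal, Itgb1, Itgav and Vcam1 shared no window with another gene. Exons of Itgav and Vcam1 did overlap gene models on the opposite strand, Gm13684 and Gm43109, which had no row of those symbols. The part of these overlaps in the Itgav and Vcam1 counts was not tested.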

How the data were processed

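RNA was sequenced from 3 control and 3 MNP samples, grouped and numbered by sample titles. The deposited files, 1 for each library, give the authors' counts by gene symbol as whole numbers. The submitters' processing notes name fastp, STAR, Salmon, GATK and GRCm39, without roles or versions; annotation, strand setting and rounding are not stated there. Library preparation used a CORALL RNA-seq V2 kit on total RNA, per the labels' protocols. Replicates were compared first, and no pair agreed within sampling noise (chi-square per degree of freedom 6.65 to 17.6).

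Genes were tested with edgeR 4.0.16 (R 4.3.3): default expression filter, TMM factors, quasi-likelihood F test, Benjamini-Hochberg adjustment over 12893 genes, called at 0.05. The standard error was obtained by dividing the size of each log2 fold change by √F. Scaled CPM uses TMM-scaled totals. Ratios used counts plus 0.5 and an exact permutation test over samples. The procedure was tested on simulated data. The 10 genes and all lists were chosen with earlier results of these data known. Named genes are the 10, up to 4 called genes with the smallest p in each of 6 adhesion lists with a mean of at least 1 CPM, and for the 2 most changed genes the 4 nearest profiles; some genes that this rule takes are not reported here. Alternatives were RLE, upper-quartile and no scaling factors, no and a stricter filter (50 counts in 3 libraries), DESeq2 1.42.0, limma-voom (limma 3.58.1), a replicate block, a threshold of 0.01, a prior count of 2 for ratios, and omission of each library. Replicate numbers were not shown to pair the samples, so the main fit did not pair them.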

Additional observations from a re-analysis of the deposited data

How the results depend on the processing

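Itgal, Itgb2, Itgb5, Icam1 and Vcam1 kept their direction and their call under all 15 alternatives tried for them (other scalings, filters, tools, the replicate block, the stricter threshold and each omitted library), and the 8 ratios kept their direction with a prior count of 2 and without each library. The number of the 10 genes called higher went from 1 to 2 with no filter, where Itgav passed (0.25, edgeR adjusted p = 0.0025), and to 2 with the replicate block, where Itgav also passed (0.23, edgeR adjusted p = 0.0157). The number called lower went from 5 to 6 with the block, where Itgax passed (-0.19, edgeR adjusted p = 0.0118), and to 6 with library totals. Replicate numbers were not shown to pair the samples: deviations of same-numbered libraries correlated at 0.087, 0.028 and -0.022, and not every library correlated best with its own number. With the block, 1432 genes were higher and 1254 lower over all genes. With library totals alone, 757 and 1941 were called, and Itgam turned to -0.059. At a threshold of 0.01, 685 and 587 genes were called, with 10 of the other adhesion genes lower. Itgb1 turned positive with no filter (0.022), with DESeq2 (0.0012), and without control 2 (0.021), control 3 (0.0025) or MNP sample 1 (0.029), and ran from -0.040 to 0.029 over the omitted libraries. Leaving out 1 library gave 672 to 1004 lower calls over all genes, lowest without MNP sample 2, and 11 to 14 lower calls in the other adhesion lists, lowest without MNP sample 1. The cause was not tested. The 10 genes had counts of 213 or more in every library, but list genes under 5 scaled CPM rest on few counts. The part of depth in these results was not tested.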
